A study of Mus musculus with 6 samples.

Results

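Phf13 and 9 other mouse genes whose proteins carry a PHD finger that reads histone H3 methylated at lysine 4 were followed in whole testis of Phf13 knockout and wild-type mice. The members were set by name: Phf13, Phf23, Ing1, Ing2, Ing3, Ing4, Ing5, Taf3, Bptf and Dido1. All probe sets annotated with exactly 1 of these symbols were taken, which gave 26 probe sets for 10 genes out of 45037 probe sets and 18193 genes on the array. The study compared testes of mice aged 5 weeks that lacked Phf13 with testes of wild-type mice, on 3 Affymetrix arrays per genotype. The knockout allele, the strain and whether animals were pooled were not given in the sources used here. Nothing in the labels ties an array to an animal of its own, so the p-values rest on the spread between arrays alone, part of which may be technical.

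A PHD finger is a small zinc-binding fold. In the genes followed here it docks on the tail of histone H3 when lysine 4 is methylated, a mark that sits at the promoters of active genes, and it brings with it the complex to which the protein belongs. PHF13, also called SPOC1, is a nuclear reader of this mark that has been linked to chromatin compaction and, in mouse testis, to the upkeep of spermatogenesis. PHF23 is its paralog. The ING proteins are subunits of histone acetyltransferase and deacetylase complexes, TAF3 is a subunit of the general transcription factor TFIID, BPTF is the large subunit of the nucleosome remodeller NURF, and DIDO1 is a nuclear protein made in several splice forms.

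Values are deposited log2 expression values, 1 per probe set and array, and a difference is the knockout mean minus the wild-type mean on that scale. The lower quartile, median and upper quartile of an array lay from 3.66 to 3.75, from 5.22 to 5.28 and from 7.22 to 7.35. The number of arrays limits the precision, and levels of different probe sets are not comparable with each other. Germ cell markers were bright in both genotypes: the spermatid gene Tnp1 stood at 13.72 ± 0.05 in knockout and 13.69 ± 0.06 in wild type, and the meiotic gene Sycp3 at 11.80 ± 0.04 in knockout and 11.68 ± 0.18 in wild type (SD, n = 3 each). The other 5 spermatocyte markers were also well above the upper quartile. But at an unadjusted p under 0.05, 4 of them, Spo11, Piwil1, Ccna1 and Aurkc, were lower in knockout, against 8.72% of all genes. Their differences were -0.29, -0.26, -0.28 and -0.42, none past limma's adjusted threshold. The arrays fall into 2 sets by 3 control probe sets for 18S ribosomal RNA. Knockout 1, wild type 1 and wild type 2 averaged 12.35 ± 0.32, and knockout 2, knockout 3 and wild type 3 averaged 10.09 ± 0.54 (SD, n = 3 each). Actin control probe sets, whose 3' minus 5' value is a sign of RNA or labelling quality, ran from 0.75 to 0.89 in the 18S-high set and from 0.56 to 0.59 in the 18S-low set. Each set holds both genotypes, so differences are also given within each. The 18S-high set has knockout 1 as its only knockout array, and the 18S-low set has wild type 3 as its only wild-type array. Each difference within a set therefore rests on 1 array on 1 side, and genotype and set are partly mixed.

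Phf13 itself fell in the knockout, and of the 10 genes only Phf13 passed the test, limma with Benjamini-Hochberg adjustment over all probe sets at an adjusted p under 0.05. Its only probe set, 1455175_at, read 6.71, 6.60 and 6.55 in knockout 1, 2 and 3, against 9.55, 9.47 and 9.56 in wild type 1, 2 and 3. All 3 knockout arrays lay below all 3 wild-type arrays, by far more than the spread inside either genotype. The difference was -2.91 (95% interval -3.11 to -2.71, limma adjusted p = 7.7e-06), which left a value of 13.3% of wild type (11.6% to 15.3%). It was -2.80 inside the 18S-high set and -2.99 inside the 18S-low set. Whether the probes lie inside the deleted stretch was not given in the sources used here, and background was not measured, so the remaining value is not a measure of remaining transcript. Over the whole array 45 probe sets passed, 0.0999% of those tested (0.0555% higher and 0.0444% lower). Without knockout 1 that count was 166, of which 140 were higher and 26 lower, and without wild type 3 it was 1176, of which 178 were higher and 998 lower. Without knockout 2, knockout 3, wild type 1 or wild type 2 it was 20, 13, 17 and 12.

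Phf23, the paralog, had nearly the same value in both genotypes. Its only probe set, 1428997_at, read 8.64, 8.81 and 8.67 in the knockout arrays, against 8.72, 8.72 and 8.64 in the wild-type arrays. The groups overlapped: the highest value was in the knockout, and 8.64 was the lowest in both genotypes. The difference was 0.01 with a 95% interval from -0.19 to 0.22 (limma adjusted p = 0.96), so the interval runs from 87.7% to 116% of the wild-type value. It was -0.08 in the 18S-high set and 0.10 in the 18S-low set.

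**Figure D1:**
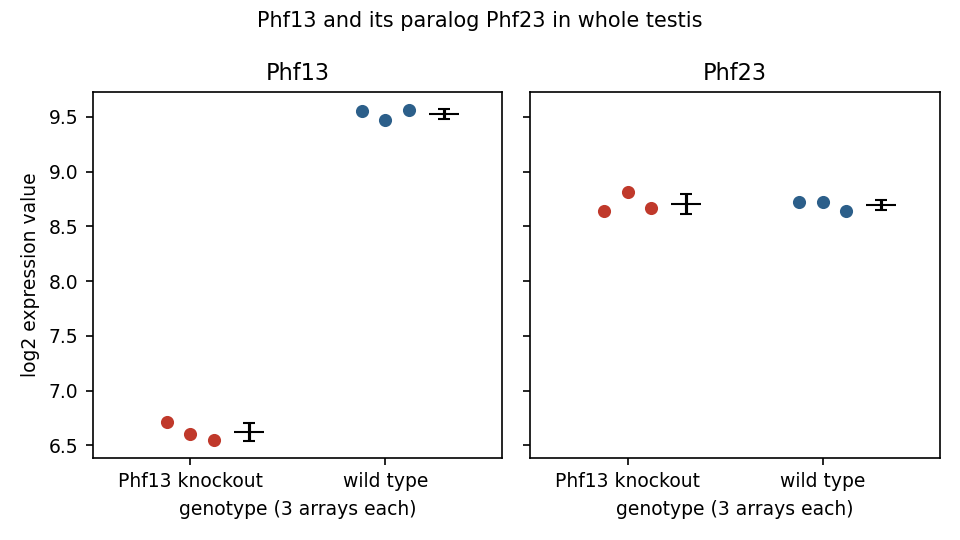
Log2 expression values of Phf13 (left) and Phf23 (right) on each array, knockout left of wild type; points are arrays and the black marks are means with SD (n = 3 each). Phf13 sits between 6.55 and 6.71 in knockout and between 9.47 and 9.56 in wild type. Phf23 sits between 8.64 and 8.81 in knockout and between 8.64 and 8.72 in wild type, so its genotypes overlap.

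The other 9 genes were measured by 25 probe sets, of which 0 passed the adjusted threshold in limma, with 0.257 as the smallest adjusted p. At an unadjusted p under 0.05, 0 of the 25 were higher and 4 were lower, where 6.81% of all probe sets were higher and 8.31% were lower. The knockout and wild-type arrays did not overlap in 1 of the 25, an Ing1 probe set that was higher, against 19.3% over the array (8.62% higher and 10.7% lower). Differences ran from -0.69 to 0.18 with a median of -0.02, against a median of 0.003 over all probe sets, and the median size without regard to sign was 0.12 both in the 25 and over all. Of the 25, 7 were above 0, 17 were below 0 and 1 was exactly 0. The 95% intervals reached at most 0.54 to either side of the difference. In 18 probe sets the whole interval lay inside 0.5 of no difference, and in 23 inside 1. With array weights, Ing5 1442094_at, Bptf 1427310_at and Bptf 1427311_at passed too, all lower (limma adjusted p = 0.0273, 0.0456 and 0.046). That fit called 3186 of all 45037 probe sets, 1654 higher and 1532 lower, against 45 without weights. The plot of differences shows Phf13 apart from the rest and the wider intervals of Bptf and of single probe sets of Ing5 and Dido1.

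**Figure D2:**
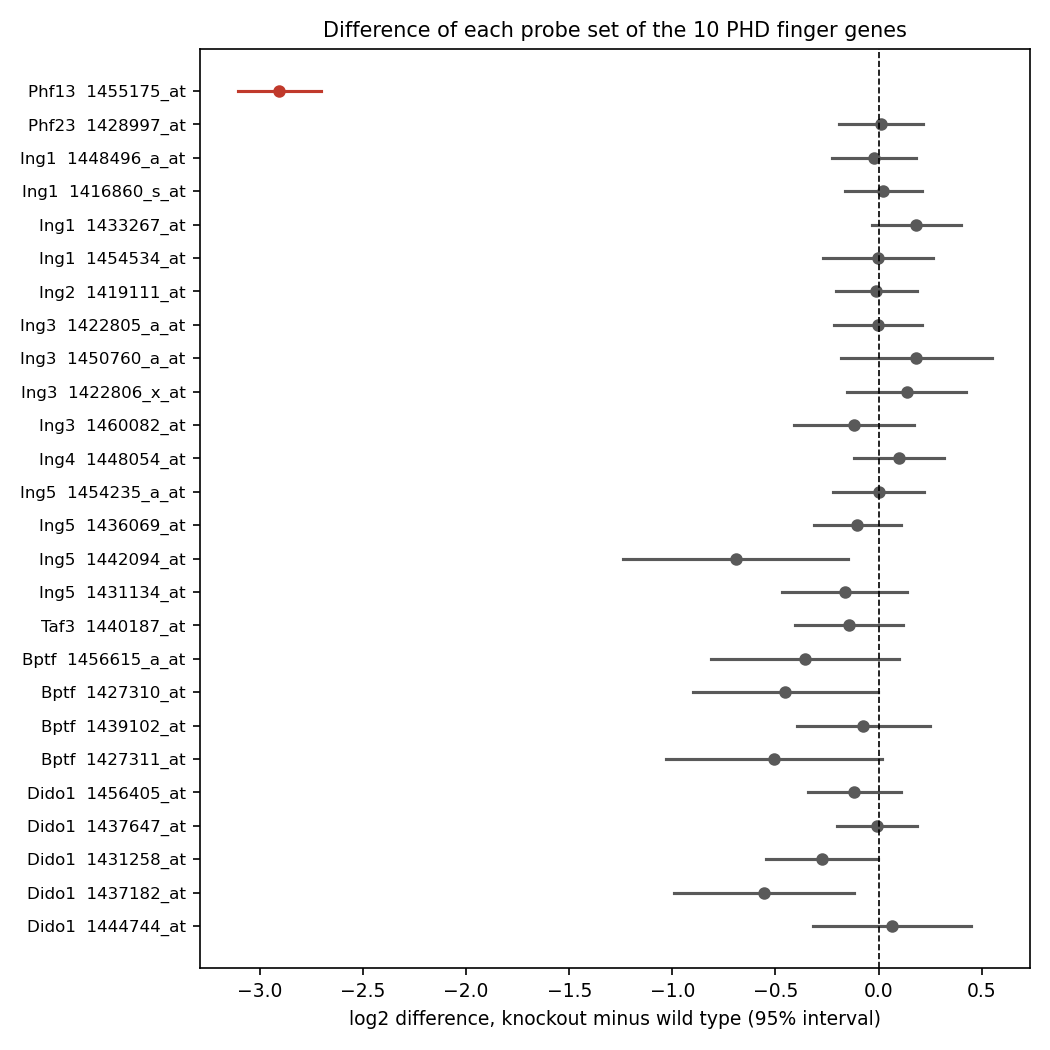
Log2 difference (knockout minus wild type, x axis) of each of the 26 probe sets, with its 95% interval from limma; red marks an adjusted p under 0.05 and grey the rest, and the dashed line is no difference. Phf13 lies at -2.91 and all other probe sets between -0.69 and 0.18.

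The ING genes that work with histone deacetylases showed no difference past the test. ING1 and ING2 are alternative subunits of the SIN3 deacetylase complex, and mouse Ing2 is known to be needed for spermatogenesis. The single Ing2 probe set, 1419111_at, read 9.47, 9.60 and 9.58 in knockout, against 9.62, 9.52 and 9.54 in wild type. The groups overlapped, with a difference of -0.01 (95% interval -0.21 to 0.19; limma adjusted p = 0.971). The brightest Ing1 probe set, 1448496_a_at, read 10.25, 10.23 and 10.28 in knockout, against 10.39, 10.20 and 10.24 in wild type, a difference of -0.02 (95% interval -0.23 to 0.18). The next, 1416860_s_at, differed by 0.02 (95% interval -0.16 to 0.21). In both, the wild-type values spanned the knockout values. The dimmer Ing1 probe set 1433267_at read 5.45, 5.40 and 5.42 in knockout, against 5.27, 5.10 and 5.35 in wild type. Its groups did not overlap, with the lowest knockout array next to wild type 3, and its difference of 0.18 did not pass (95% interval -0.03 to 0.40; limma adjusted p = 0.398). The remaining one, 1454534_at, differed by -0.003 (95% interval -0.27 to 0.26).

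The ING genes of acetyltransferase complexes were also without a call, apart from a split among the probe sets of Ing5 described next. ING3 belongs to the NuA4/TIP60 acetyltransferase, ING4 to the HBO1 complex, and ING5 to HBO1 and MOZ/MORF complexes. The brightest Ing3 probe set, 1422805_a_at, read 8.33, 8.35 and 8.32 in knockout, against 8.48, 8.26 and 8.27 in wild type, a difference of -0.003 (95% interval -0.22 to 0.21). The other 3 Ing3 probe sets differed by 0.18, 0.14 and -0.12, with limma adjusted p of at least 0.624. One of these, 1422806_x_at, carries the suffix that marks probes shared with other transcripts. The single Ing4 probe set, 1448054_at, read 5.17, 5.26 and 5.00 in knockout, against 5.04, 5.01 and 5.08 in wild type. It lies near the median of the arrays, its groups overlapped, and its difference was 0.10 (95% interval -0.12 to 0.32; limma adjusted p = 0.658).

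Ing5 probe sets did not move alike. The brightest, 1454235_a_at, read 8.18, 8.33 and 8.44 in knockout, against 8.32, 8.27 and 8.36 in wild type, with equal means and a difference of 0.00 (95% interval -0.22 to 0.22). The next, 1436069_at, differed by -0.10 (95% interval -0.31 to 0.11). The dimmer 1442094_at read 5.81, 5.10 and 4.97 in knockout, against 6.32, 5.99 and 5.65 in wild type. Here the groups overlapped between knockout 1 and wild type 3, and in each genotype the arrays of the 18S-low set were the low ones. The difference of -0.69 had the lowest value among the 25 (95% interval -1.24 to -0.15) and did not pass (limma adjusted p = 0.257). It was -0.35 in the 18S-high set and -0.62 in the 18S-low set. In a fit of genotype and set together, the 18S-low minus 18S-high term was -0.64 (limma adjusted p = 0.162 for the set). The remaining probe set, 1431134_at, was dim on all arrays, at 2.84 to 3.43, and differed by -0.16 (95% interval -0.47 to 0.14).

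Taf3 and Dido1 had no call in the fit of all 6 arrays. TAF3 anchors TFIID to methylated lysine 4 at promoters. Its probe set 1440187_at read 4.98, 5.20 and 5.22 in knockout, against 5.31, 5.42 and 5.10 in wild type, so that the groups overlapped. The difference was -0.14 (95% interval -0.41 to 0.12; limma adjusted p = 0.59), with -0.39 in the 18S-high set and 0.11 in the 18S-low set. Of the 5 Dido1 probe sets, the brightest, 1456405_at, differed by -0.12 (95% interval -0.34 to 0.11) and 1437647_at by -0.01 (95% interval -0.20 to 0.19). The probe set 1437182_at read 5.64, 6.0 and 5.74 in knockout, against 6.63, 6.52 and 5.90 in wild type. Wild type 3 stood with the knockout arrays and below knockout 2, while wild type 1 and 2 stood above all of them. The difference of -0.56 did not pass (95% interval -0.99 to -0.12; limma adjusted p = 0.257), and it was -0.94 in the 18S-high set and -0.03 in the 18S-low set. Without wild type 3 it was -0.78 and passed (limma adjusted p = 0.0221), in a fit that called 1176 of all 45037 probe sets, 998 of them lower. The probe set 1431258_at differed by -0.27 (95% interval -0.54 to -0.003; limma adjusted p = 0.327), with -0.06 and -0.40 in the 18S-high and 18S-low sets. The last, 1444744_at, differed by 0.07 (95% interval -0.32 to 0.45).

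Bptf, the reader that recruits NURF to methylated lysine 4, had all 4 probe sets below 0, and 0 passed. The brightest, 1456615_a_at, read 9.45, 9.16 and 9.12 in knockout, against 9.87, 9.82 and 9.11 in wild type. The probe set 1427310_at read 8.85, 8.61 and 8.50 in knockout, against 9.35, 9.34 and 8.63 in wild type. In both, wild type 1 and 2 were the highest arrays, knockout 1 came next, and wild type 3 stood beside knockout 2 and 3. The differences were -0.36 (95% interval -0.81 to 0.10; limma adjusted p = 0.437) and -0.45 (95% interval -0.90 to -0.005; limma adjusted p = 0.327). The dimmer 1427311_at differed by -0.51 (95% interval -1.03 to 0.02; limma adjusted p = 0.344) and 1439102_at by -0.07 (95% interval -0.39 to 0.25). Inside the 18S-high set the 4 differences were -0.40, -0.50, -0.11 and -0.55 in the order of brightness, and inside the 18S-low set they were 0.03, -0.08, 0.18 and -0.11. With genotype and set fitted together, the 18S-low minus 18S-high term ran from -0.33 to -0.55 in the 4, with limma adjusted p for the set from 0.186 to 0.236. Without wild type 3, 1456615_a_at and 1427310_at passed, at -0.60 and -0.69 (limma adjusted p = 0.0499 and 0.0304). That fit called 1176 of all 45037 probe sets, 998 of them lower. The part of the 18S sets in these values was not tested further.

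**Figure D3:**
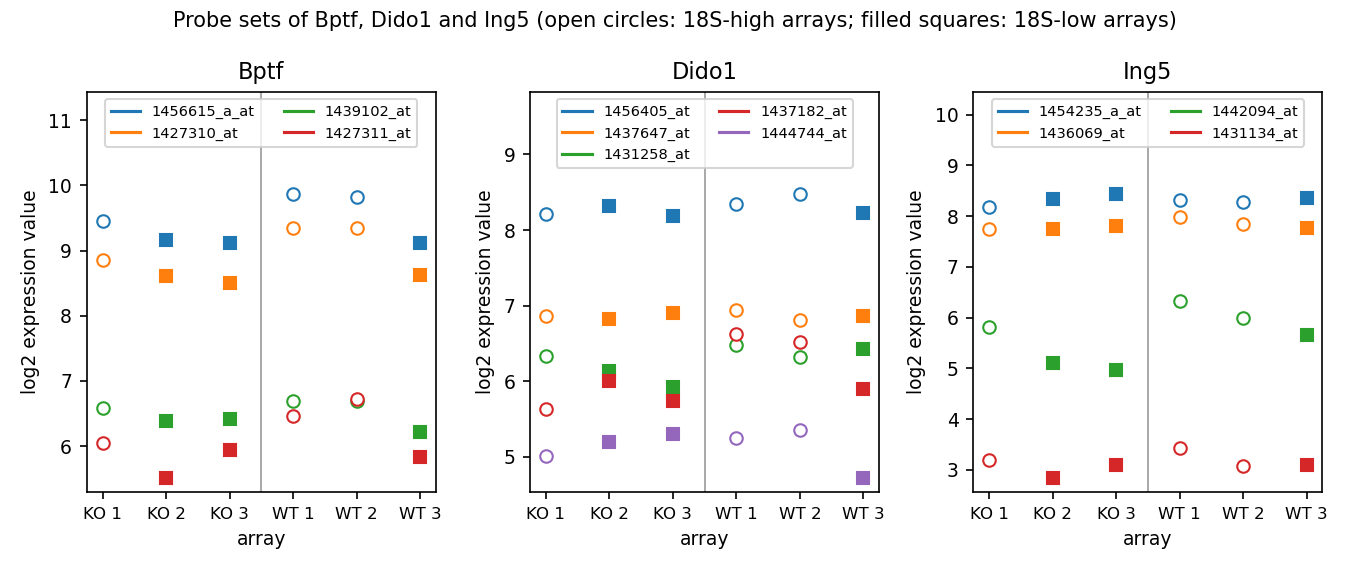
Log2 expression values (y axis) of every probe set of Bptf, Dido1 and Ing5 on each array (x axis), knockout left of the grey line and wild type right of it; colours are probe sets, open circles are arrays of the 18S-high set and filled squares arrays of the 18S-low set. For Bptf 1456615_a_at, wild type 3 at 9.11 lies beside knockout 2 and 3 at 9.16 and 9.12, below wild type 1 and 2 at 9.87 and 9.82.

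Gene lists for other readers and for the complexes of these proteins gave no call. Of 82 genes listed, 79 had a probe set with a single symbol, and each was taken by its brightest one. None of the 79 passed in limma (0 of 79 against 0.137% of all genes). At an unadjusted p under 0.05 there were 10 higher and 11 lower, against 8.58% and 8.72% of all genes. On chromosome X, 6 of the 7 list genes were higher and 0 lower, and over all its 617 genes 284 were higher and 1 lower. On other chromosomes, 4 of 72 list genes were higher and 11 lower, against 1269 higher and 1569 lower of 17415 genes. This split was chosen after the values were seen. The median of the 79 was -0.04, with 32 above 0 and 47 below, and the median over all 18193 genes was 0.01. With array weights 14 of the 79 passed, in a fit that called 3186 of all 45037 probe sets. Without wild type 3 only Phf21a passed, at -0.56 (limma adjusted p = 0.03), and without knockout 1 only Smarca1, at 0.79 (limma adjusted p = 0.045). Those fits called 1176 and 166 of all probe sets.

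Of 18 other readers of methylated lysine 4, those at an unadjusted p under 0.05 were 3 higher and 3 lower, with a median of -0.03. Over all genes the shares were 8.58% and 8.72%. Of the 3 higher, Morc4 and Phf8 lie on chromosome X. Morc4, an ATPase whose CW domain binds the mark, read 4.25, 4.23 and 4.35 in knockout, against 3.87, 3.82 and 3.70 in wild type. The groups did not overlap, and the difference was 0.48 (95% interval 0.27 to 0.69; limma adjusted p = 0.143) at a level near the lower quartile of the arrays. Spin1, whose tudor-like repeats bind the mark, read 10.56, 10.61 and 10.74 in knockout, against 10.22, 10.30 and 10.20 in wild type, a difference of 0.40 (95% interval 0.19 to 0.60; limma adjusted p = 0.185). Its other 3 probe sets differed by 0.34, 0.16 and 0.09. Among 7 readers of unmethylated lysine 4, 0 were higher and 2 lower, with a median of -0.10. Phf21a, the reader in the LSD1 demethylase complex, stood at 8.73 ± 0.07 in knockout and 9.16 ± 0.23 in wild type (SD, n = 3 each), a difference of -0.43 (limma adjusted p = 0.223). Its other probe sets differed by -0.29, 0.04 and -0.86. Dnmt3l, the cofactor of germ cell DNA methylation, stood at 6.87 ± 0.08 in knockout and 7.13 ± 0.08 in wild type (SD, n = 3 each), a difference of -0.26 (limma adjusted p = 0.26).

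Partner lists differed in their medians, with no test of that difference. At an unadjusted p under 0.05, 8.58% of all genes were higher and 8.72% lower. The SIN3 deacetylase list, partners of Ing1 and Ing2, had a median of 0.10, and at an unadjusted p under 0.05 it held 3 higher and 0 lower of 14 genes. Rbbp7, a histone-binding subunit, stood at 11.23 ± 0.20 in knockout and 10.70 ± 0.11 in wild type (SD, n = 3 each), a difference of 0.52 (95% interval 0.25 to 0.80; limma adjusted p = 0.185). The deacetylase gene Hdac2 differed by 0.31 (limma adjusted p = 0.266), its next probe set by 0.16 and its dimmest by -0.23. The NuA4/TIP60 list of Ing3 had a median of -0.11 over 15 genes, with 1 higher and 3 lower. Its chromatin subunit gene Morf4l2 stood at 10.62 ± 0.21 in knockout and 10.08 ± 0.10 in wild type (SD, n = 3 each), a difference of 0.54 (limma adjusted p = 0.182), and its 3 other probe sets differed by 0.44 to 0.54. Actl6a, an actin-related subunit, stood at 9.81 ± 0.09 in knockout and 10.17 ± 0.04 in wild type (SD, n = 3 each), a difference of -0.36 (limma adjusted p = 0.194). Its other probe sets differed by -0.34 and -0.05. The probe sets of Rbbp7 and Morf4l2 used here carry that same suffix for shared probes, and both genes have close relatives. Probe sets without the suffix gave about the same differences, 0.49 for Rbbp7 1415775_at and 0.44 for Morf4l2 1415778_at. Both genes lie on chromosome X, where 89.6% of all genes were above 0.

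The HBO1 and MOZ/MORF list of Ing4 and Ing5 had a median of -0.06 over 10 genes. At an unadjusted p under 0.05 it held 2 higher and 1 lower, against 8.58% and 8.72% of all genes. The scaffold gene Jade1 stood at 8.46 ± 0.13 in knockout and 8.09 ± 0.03 in wild type (SD, n = 3 each), a difference of 0.37 (limma adjusted p = 0.199). Its other probe sets differed by 0.35, 0.27 and 0.07. Its relative Jade3, on chromosome X, differed by 0.41 (limma adjusted p = 0.265). The TFIID list of Taf3 had a median of -0.09 over 13 genes, with 0 higher and 2 lower: Taf11 differed by -0.21 (limma adjusted p = 0.308) and Taf5 by -0.19 (limma adjusted p = 0.319). The NURF list of Bptf held 5 genes, all above 0, with a median of 0.14 and 2 higher. These were Rbbp7, which the SIN3 list shares, and Smarca1, the remodelling ATPase, at 7.63, 8.06 and 8.22 in knockout, against 7.28, 7.35 and 7.42 in wild type. All knockout arrays lay above all wild-type arrays, with a difference of 0.62 (95% interval 0.28 to 0.96; limma adjusted p = 0.188). The other partners, Hmgxb4, Smarca5 and Rbbp4, differed by 0.14, 0.07 and 0.05, with 95% intervals that included 0. Rbbp7 and Smarca1 lie on chromosome X, where 89.6% of all genes were above 0. The probe sets of Bptf were below 0 over all arrays. Inside the array set of wild type 3 they differed by 0.03, -0.08, 0.18 and -0.11. Of Bptf and its partners 0 passed, and whether they moved in opposite directions was not tested.

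**Figure D4:**
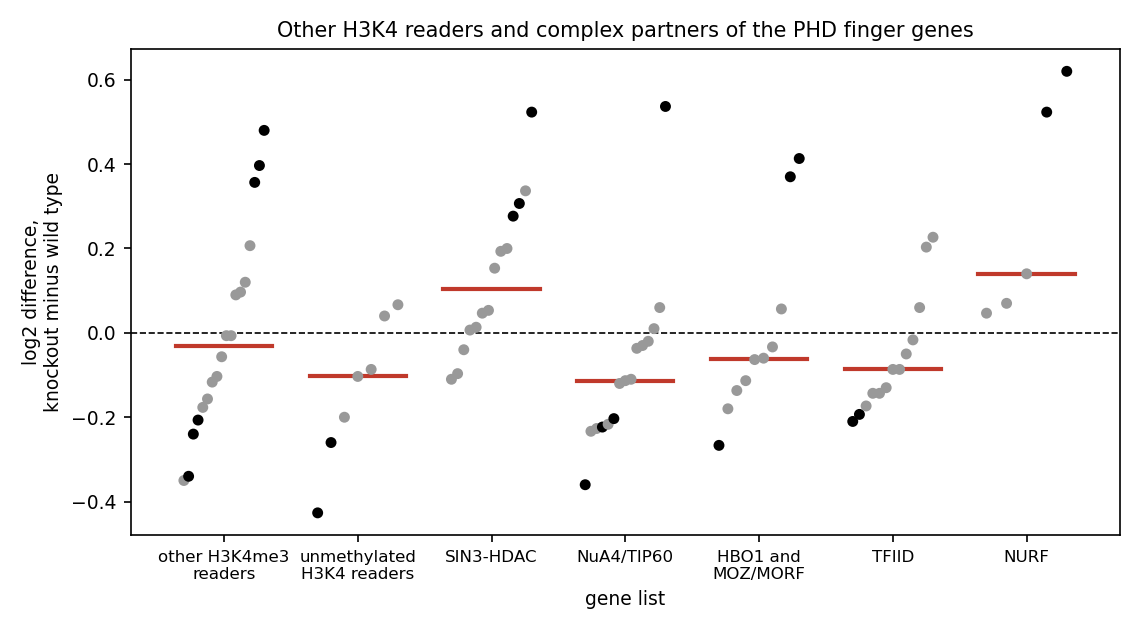
Log2 difference (knockout minus wild type, y axis) of each gene of the 7 lists (x axis), sorted within a list; black points have an unadjusted p under 0.05, grey points do not, and red bars are list medians. Medians run from -0.11 for NuA4/TIP60 to 0.14 for NURF, and the highest point is Smarca1 at 0.62.

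Markers of testis cell types moved beside these values, and in bulk tissue fewer cells of a type and less RNA per cell cannot be told apart. At an unadjusted p under 0.05, 8.58% of all genes were higher and 8.72% lower. Of 10 Sertoli cell markers 9 were above 0, 5 of them at an unadjusted p under 0.05 and 0 past limma's adjusted threshold. Their summed unlogged values ran from 10660 to 11410 in knockout and from 7923 to 8671 in wild type. Of 6 spermatocyte markers 4 were lower at an unadjusted p under 0.05, with sums from 8127 to 8192 in knockout and from 8088 to 8981 in wild type. The 4 peritubular myoid markers were all above 0, 3 of them at an unadjusted p under 0.05. Their sums ran from 2370 to 3222 in knockout and from 1726 to 1833 in wild type. The 4 Leydig markers measured were all above 0, 2 of them at an unadjusted p under 0.05. Their sums ran from 3390 to 4964 in knockout and from 2941 to 3806 in wild type. The 3 adipose markers measured were all above 0, with 2 at an unadjusted p under 0.05 and sums from 487 to 707 in knockout and from 345 to 451 in wild type. Among them Fabp4, a fatty acid binding protein gene, had the largest difference of any marker measured, 2.21, with a wide spread in wild type (7.61 ± 0.63 in knockout and 5.40 ± 1.14 in wild type; SD, n = 3 each). The 5 macrophage markers were above 0 with overlapping sums, from 471 to 693 in knockout and from 469.9 to 538 in wild type. Other lists had medians near 0: spermatogonia 0.01, round spermatids 0.02, elongating spermatids 0.01, red blood cells -0.02 and epididymis 0.10. In these lists 0 markers were at an unadjusted p under 0.05. No marker was at 0 on any array. The 7 genes of the lists that lie on chromosome X, none of them a PHD finger gene of the 10, were all above 0, with a median of 0.48, against -0.06 for the 72 others placed on a chromosome. This split was chosen after the values were seen. The part of cell types and of chromosome X in the list values was not tested.

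The genes whose profile over the 6 arrays was most like that of Phf13 were Tas1r1, Hspb7, Art1, Fgf14 and Tnfaip2. Likeness was the root mean square difference between log2 profiles centred on their own means, and a flat profile would score 1.45. Tas1r1 scored 0.42 and Hspb7 0.68, and both lie on chromosome 4 like Phf13. Art1 scored 0.86, Fgf14 0.87 and Tnfaip2 0.89. These genes were picked for likeness to Phf13, which was low in knockout, on the same 6 arrays. A difference between the genotypes is therefore largely built in. The limma p-values of these genes reuse the values that picked them, so passing is not separate evidence of a difference. Fgf14 did not pass the test (difference -1.42, limma adjusted p = 0.164), whereas the other 4 did, and without wild type 3 Fgf14 passed at -1.80 (limma adjusted p = 0.00568). Tnfaip2, at -1.14, missed the threshold without knockout 3 (-1.12, limma adjusted p = 0.0693), without wild type 2 (-1.14, limma adjusted p = 0.0749) and with the title code run block (-1.15, limma adjusted p = 0.113), at differences of about the same size. None of the 10 PHD finger genes other than Phf13 was among them.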

How the data were processed

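Whole-testis RNA of Phf13 knockout and wild-type mice aged 5 weeks was hybridised to Affymetrix arrays, 3 per genotype. The deposited table holds log2 values. The submitters' processing notes name Affymetrix Expression Console 1.4.1 for them. That they are log2 was judged from their range and near-equal quartiles, and the summarization, normalization and build behind them were not given in the sources used here. No further normalization was applied. Of 45101 probe sets, 64 controls were left out and 45037 tested without a filter. The platform annotation gave 34945 a single symbol, 932 several and 9160 none. Of the first, 34741 were found by gene identifier in RefSeq for GRCm38.p6, with 0 changed symbols, which gave chromosomes.

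R 4.3.3 and limma 3.58.1 (lmFit, eBayes, two-sided) were used, with Benjamini-Hochberg adjustment over all probe sets and moderated 95% intervals that are not adjusted. The fit was run on simulated data with independent noise per probe set and array, without array sets or shifts shared by genes. That run does not show how calls behave under such effects. Arrays correlated at 0.989 to 0.998, and the closest pair differed by 0.17 (root mean square), so no array is a copy of another's values. Whether arrays share an animal or RNA cannot be read from this. The members, the 7 lists, the markers and the split by 18S controls were chosen with earlier results of these data known. Named were the 10 members, per list the genes past the threshold or else the 2 with the smallest p, and the 5 genes most like Phf13. Alternatives were blocks for replicate number, title code runs and 18S sets, a level filter, quantile normalization, median centring, trended robust moderation, array weights, single-symbol probe sets only, gene means, a threshold of 0.1 and each array left out.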

Additional observations from a re-analysis of the deposited data

How the results depend on the processing

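Phf13 kept its call and direction in all 16 alternatives, with limma adjusted p from 5.49e-07 to 0.00305 and differences from -2.95 to -2.87. Among these, the threshold of 0.1 reads the main fit again, so it could not change the Phf13 call. Phf23 stayed between -0.04 and 0.06 and was never called; without an array it ran from -0.0383 to 0.0467. Among the 26 probe sets of the 10 genes 1 passed; with array weights 4 passed, and with an array left out 1 to 4. Over all probe sets 45 passed, against 28 with the replicate block, 16 with the title code run block, 79 above the median level, 110 with trended robust moderation, 3186 with array weights, 100 at an adjusted p under 0.1, and 12 to 1176 with an array left out. Of the list genes 0 passed, 14 with array weights and 0 to 1 with an array left out. Replicate numbers are not a stated pairing: deviations of same-numbered arrays correlated at 0.26, 0.07 and 0.12, 4 of 6 arrays correlated best with their own number, and the replicate block changed no call among the 10 genes.

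The sign changed in 10 of the 26 probe sets, none past the threshold and none differing by more than 0.12 in the fit of all arrays. With the title code run block Ing1 1448496_a_at was 0.03, Ing1 1416860_s_at -0.01, Ing1 1454534_at 0.02, Ing2 0.00714, Ing3 1422805_a_at 0.0671, Ing3 1460082_at 0.0214, Bptf 1439102_at 0.0557 and Dido1 1437647_at 0.0229. With the 18S set block Ing1 1454534_at was 0.02, Ing3 1422805_a_at 0.0125 and Bptf 1439102_at 0.035. With quantile normalization Ing1 1448496_a_at was 0.0075, Ing2 0.0358, Ing3 1422805_a_at 0.0506 and Dido1 1437647_at 0.0144. With array weights Ing2 was 0.0349, Ing3 1422805_a_at 0.0248 and Dido1 1437647_at 0.000359. With an array left out Ing1 1448496_a_at ran from -0.0617 to 0.0333, Ing1 1416860_s_at from -0.00333 to 0.0467, Ing1 1454534_at from -0.0667 to 0.118, Ing2 from -0.035 to 0.03, Ing3 1422805_a_at from -0.0417 to 0.0683, Bptf 1439102_at from -0.23 to 0.005, Dido1 1437647_at from -0.0383 to 0.0267 and Dido1 1444744_at from -0.127 to 0.188. The cause was not tested.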

Other observations

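Chromosome X stood apart beyond the lists, a pattern looked at after the values of the list genes were seen and given without a test. Of 617 genes placed on chromosome X by RefSeq, each by its brightest probe set, 553 were above 0 in the knockout minus wild type difference, 62 were below 0 and the median was 0.27. Of 17415 genes on other chromosomes 8713 were above 0 and 8549 below, with a median of 0.003. The median was 0.19 inside the 18S-high set and 0.28 inside the 18S-low set for chromosome X, and -0.03 in each set for the others. At an unadjusted p under 0.05, 284 of the 617 chromosome X genes were higher and 1 lower, against 1269 higher and 1569 lower of the 17415 others. Past limma's adjusted threshold were 0 chromosome X genes and, of the others, 13 higher and 12 lower.

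By array, the median log2 value of the chromosome X genes was 6.08, 6.28 and 6.37 in knockout 1, 2 and 3, against 5.90, 5.96 and 5.94 in wild type 1, 2 and 3, so the genotypes did not overlap. The list genes among them were Smarca1 at 0.62, Morf4l2 at 0.54, Rbbp7 at 0.52, Morc4 at 0.48, Jade3 at 0.41, the histone demethylase gene Phf8 at 0.36 and the TFIID gene Taf1 at 0.23. Phf13, on chromosome 4, and the other 9 PHD finger genes lie on autosomes.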
